A study of Homo sapiens with 4 samples.

Results

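The genes described here are CARM1, the other protein arginine methyltransferase genes PRMT1, PRMT2, PRMT3, PRMT5, PRMT6, PRMT7, PRMT8 and PRMT9, and WDR77, the partner subunit of PRMT5. They were taken by name, through every exon-level probeset (a few probes read together as 1 stretch of an exon) whose only gene symbol on the array platform was one of these. PRMT9 was found under its older symbol PRMT10. The 10 genes held 143 probesets, out of 18640 genes and 218927 named probesets in all, and 0 of the 143 had a cell without a measured value. The RNA came from human embryoid bodies, the floating aggregates in which embryonic stem cells start to differentiate, made from the line BG01V, which has a variant karyotype. The DMSO group held 2 arrays of embryoid bodies given the vehicle. The TBBD group held 2 arrays of embryoid bodies given 10 µM TBBD for 48 h, in general between day 2 and day 4 of their formation. TBBD, also known as ellagic acid, is named in the series title as an inhibitor of the methylation of arginine 17 in histone H3, and no gene was deleted or targeted in either group. All 4 arrays share the line, which is 1 karyotypically variant line. The labels do not state whether numbers 1 and 2 are separate cultures, so errors below reflect variation between these arrays and nothing further. Those errors are moderated, so the spread of each gene or probeset is drawn towards a value shared by all of them.

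Protein arginine methyltransferases move methyl groups from S-adenosylmethionine to the side chain of arginine. Type I enzymes (CARM1, PRMT1, PRMT2, PRMT3, PRMT6 and PRMT8) leave asymmetric dimethylarginine, type II enzymes (PRMT5 and PRMT9) leave symmetric dimethylarginine, and PRMT7 adds a single methyl group. CARM1, also called PRMT4, methylates histone H3 and is a coactivator of nuclear receptors, known in embryonic stem cells for its link to the pluripotent state. Inhibition of methylation concerns a reaction on protein, which an RNA array does not measure, so the values below are transcript signals only.

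Upstream sequences of 3 genes are given here because CARM1 makes the mark in question and PRMT5 and WDR77 encode the subunits of 1 complex. PRMT5 and WDR77 were both highest on the array DMSO 1. This is not particular to them, since 5 of the 10 genes were, CARM1 included. Each is the 250 bases before the annotated start, 5′ to 3′ on the gene's own strand, from RefSeq on build GRCh38.p14. All 10 genes matched this table, which lists 2 starts for CARM1, of which the first is shown. Capitals mark matches, on either strand, to the GC box GGGCGG and the CCAAT box. CARM1 lies at chr19:10871303-10871552 on the plus strand, PRMT5 at chr14:22929377-22929626 on the minus strand, and WDR77 at chr1:111449257-111449506 on the minus strand.
CARM1: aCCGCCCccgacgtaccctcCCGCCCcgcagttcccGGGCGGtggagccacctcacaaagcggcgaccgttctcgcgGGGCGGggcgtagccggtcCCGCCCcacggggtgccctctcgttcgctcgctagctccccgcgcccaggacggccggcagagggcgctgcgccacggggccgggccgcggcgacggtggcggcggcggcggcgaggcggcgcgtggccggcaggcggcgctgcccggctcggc
PRMT5: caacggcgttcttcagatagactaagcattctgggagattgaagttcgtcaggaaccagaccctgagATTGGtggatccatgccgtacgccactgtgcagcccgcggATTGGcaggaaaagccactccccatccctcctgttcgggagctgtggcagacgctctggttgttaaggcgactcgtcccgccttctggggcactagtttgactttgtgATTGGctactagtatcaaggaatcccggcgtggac
WDR77: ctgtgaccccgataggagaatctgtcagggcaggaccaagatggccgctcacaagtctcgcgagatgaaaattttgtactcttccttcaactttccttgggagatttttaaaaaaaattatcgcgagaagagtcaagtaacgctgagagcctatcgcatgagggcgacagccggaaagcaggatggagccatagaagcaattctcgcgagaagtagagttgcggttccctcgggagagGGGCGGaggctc

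The CARM1 stretch had 5 GC box matches and a G and C content of 81.6%, against a median of 58.0% over 35116 promoters of the table. The PRMT5 stretch had 0 GC box and 3 CCAAT matches with 55.6% G and C, and that of WDR77 had 1 GC box and 0 CCAAT matches with 51.2%. The GC box letters occur in 42.6% of all these promoters and the CCAAT letters in 32.0%. The letters CACGTG of an E-box, in 6.34% of promoters, and CCGGAAG of ETS factors, in 8.52%, did not occur in these 3 windows. A match is a run of letters and not a measured binding site.

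Median log2 signals of the arrays ran from 6.39 to 6.42. Olfactory receptor genes, taken as genes silent in these cells, had a median of 5.40 over 516 probesets, and 95% of those lay below 5.81, which serves here as a rough mark of background. Of 6 stem cell markers, LIN28A read 9.08 to 10.00, SALL4 7.82 to 8.98 and DNMT3B 7.21 to 8.23 on the 4 arrays. POU5F1 read 6.60 to 7.75, with 2 of its 4 probesets above the mark, and NANOG 6.49 to 6.79. SOX2 ran from 5.74 on TBBD 1, below the mark, to 7.49 on DMSO 2. GATA6, an endoderm factor, read 9.03 to 9.36. PAX6, of neural cells, had gene means of 5.24 to 5.72, below that mark, with 4 of its 18 probesets above it. The arrays differed more by number than by treatment, since the SD over all genes between the DMSO arrays was 0.31 and between the TBBD arrays 0.33, while between treatments it was 0.21 at number 1 and 0.19 at number 2. In limma's moderated test of TBBD against DMSO, 0 of 18640 genes had a Benjamini-Hochberg adjusted p under 0.05 (0.0%) and 139, or 0.746%, had an unadjusted p under 0.05.

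None of the 10 genes passed the test, and 0 had an unadjusted p under 0.05 in limma. The adjusted p was 1 for each of them. The difference of TBBD minus DMSO was below 0 for 7 genes and above 0 for 3, with a median of -0.13 on the log2 scale, where 51.2% of all genes lay lower and the median of all genes was -0.0035. No gene differed by a fold of 1.5 or more in either direction, and standard errors ran from 0.11 to 0.26. Both TBBD arrays lay below both DMSO arrays for CARM1, PRMT7 and PRMT9, 3 of 10 against 10.3% of all genes. No member had both TBBD arrays above both DMSO arrays, which 10.4% of genes did. The direction of the 3 separated genes held under every alternative tried, and the other 7 turned under at least 1. This is no separate support for the 3, since leaving out an array cannot turn genes whose groups do not overlap. Several other alternatives leave the difference itself unchanged. Leaving out DMSO 1 moved the median of the 10 genes to 0.018, and leaving out TBBD 2 moved it to -0.05.

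**Figure D1:**
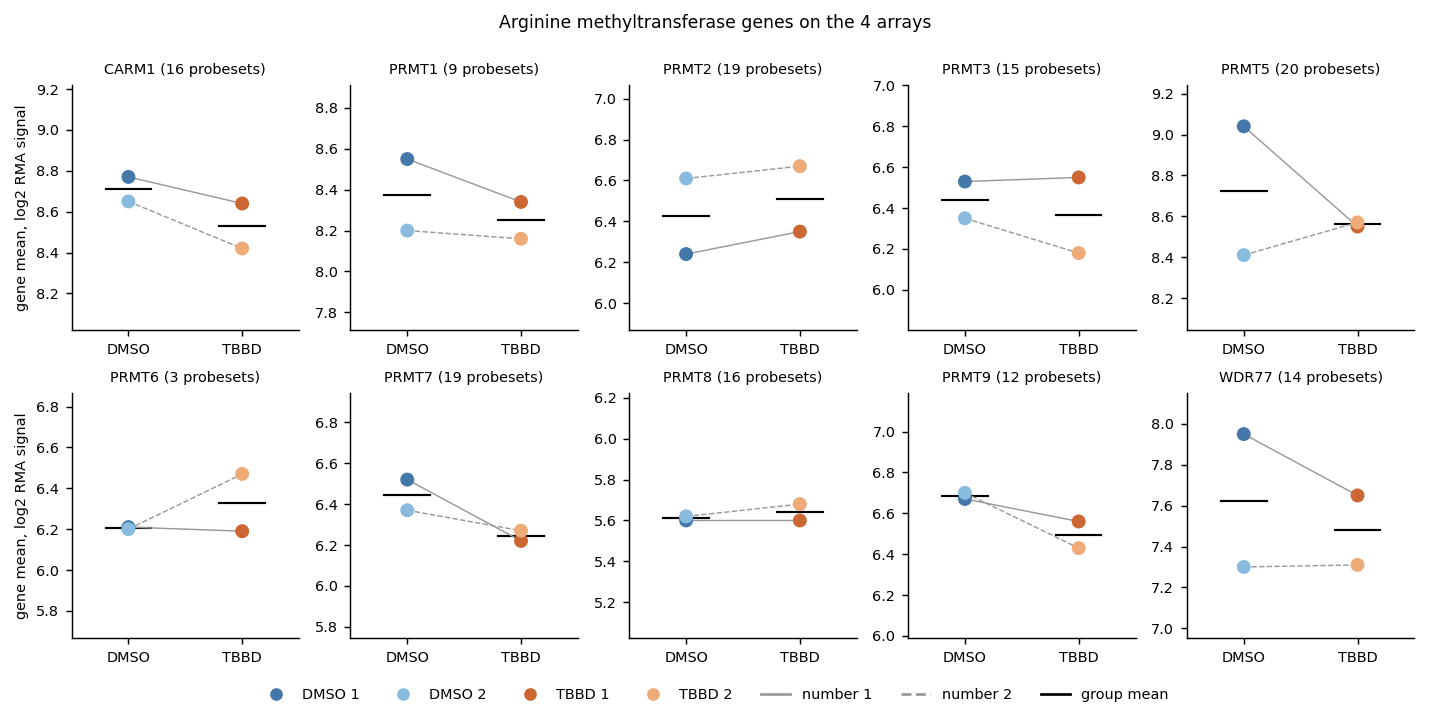
Mean log2 RMA signal of each gene (y axis, 1.2 log2 units in every panel) on the 4 arrays, by treatment (x axis). Points are arrays, grey lines join arrays of the same number (solid for 1, dashed for 2), and black bars are the means of 2 arrays. For CARM1, PRMT7 and PRMT9 the TBBD points lie below both DMSO points, while PRMT5 and WDR77 stand out by 1 high array, DMSO 1.

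CARM1 had gene means of 8.77 and 8.65 on the DMSO arrays 1 and 2, and 8.64 and 8.42 on the TBBD arrays 1 and 2. The groups do not overlap, but only by 0.0070 between DMSO 2 and TBBD 1. The difference of TBBD minus DMSO was -0.13 at number 1 and -0.23 at number 2. The mean difference was -0.18 ± 0.13 (SE), a fold of 0.885, with a 95% confidence interval of -0.52 to 0.17. It stayed below 0 with any array left out, at -0.066 without TBBD 2 and -0.29 without TBBD 1.

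The 16 CARM1 probesets all lay above the background mark, with means from 7.47 to 11.50. TBBD lay lower at both numbers for 11 of the 16 and higher at both for 2, where 23.7% of all named probesets lay lower at both. For 6 of the 16 both TBBD arrays lay below both DMSO arrays, where 13.3% of named probesets did, and for 2 they lay above. These probesets come from the same 4 RNA samples and are not replicates, so their count adds no independent evidence. The probeset with the most negative difference, the 11th in order of identifier, read 7.78 and 7.81 with DMSO and 7.41 and 6.95 with TBBD, a difference of -0.62 ± 0.25 (SE). The 8th read 8.18 and 7.81 with DMSO and 7.51 and 7.35 with TBBD, a difference of -0.56 ± 0.24.

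The brightest CARM1 probeset, the second in that order, was close to 0 in difference, with opposite signs at the 2 numbers. It read 11.56 and 11.46 with DMSO and 11.47 and 11.51 with TBBD, a difference of -0.02 ± 0.21. The dimmest, the 16th, read 7.82 and 7.50 with DMSO and 7.57 and 6.98 with TBBD, a difference of -0.39 ± 0.29. The most positive, the third, read 7.74 and 7.64 with DMSO and 8.23 and 7.75 with TBBD, a difference of 0.30 ± 0.26. The differences of the 16 probesets had an SD of 0.26. Over the whole family 0 of 143 probesets had an unadjusted p under 0.05 in limma fitted on single probesets, against 2.69% of all 247035.

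**Figure D2:**
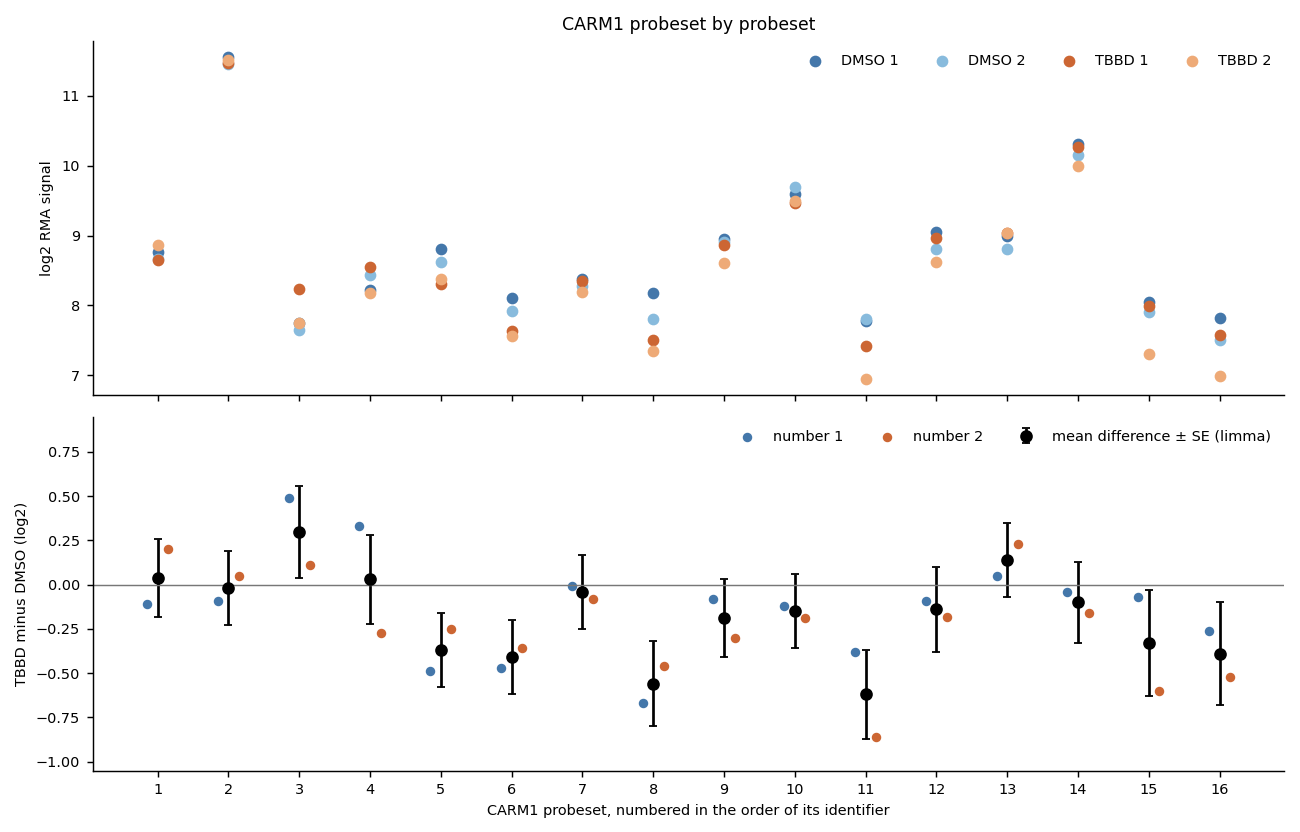
Upper panel: log2 RMA signal (y axis) of the 16 CARM1 probesets, numbered in the order of their identifiers (x axis), on the 4 arrays. Lower panel: TBBD minus DMSO in log2 units, with the mean difference and its SE from limma in black and the differences at numbers 1 and 2 in colour. Most points lie below 0, and probesets 8 and 11 lie lowest.

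Many genes followed the course of CARM1 over the 4 arrays. After each gene was centred on its own mean, 260 of 16818 genes with at least 3 probesets lay within a root mean square distance of 0.05 of CARM1. The nearest were C10orf2 at 0.0034, ETAA1 at 0.0050, GIP at 0.0097, KLHL31 at 0.0104 and MAD2L1BP at 0.0105. KLHL31 lay below the background mark on every array, at 4.96 to 5.33. C10orf2 lay below it on TBBD 2 alone, at 5.72, and GIP came close to it there, at 5.85. How many genes lie this near to genes other than CARM1 was not computed. Likeness over 4 arrays is a description only, and CARM1 itself varied around its mean by a root mean square of 0.124. Within the family its nearest gene was PRMT9, at 0.0618, the smallest distance of the 45 pairs.

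PRMT1, which makes most of the asymmetric dimethylarginine in mammalian cells, had means of 8.55 and 8.20 with DMSO and 8.34 and 8.16 with TBBD. The groups overlap, and DMSO 1 is the highest array. The difference was -0.21 at number 1 and -0.03 at number 2, and -0.12 ± 0.17 (SE) in all. The direction turned without DMSO 1, to 0.054, and the median over probesets in place of the mean gave -0.028. Its 9 probesets were uniform, with 5 lower at both numbers, 1 higher at both, and differences between -0.22 and 0.17. Of all named probesets 23.7% lay lower at both, and the 9 read the same RNA and are not replicates.

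PRMT3, a cytosolic enzyme that methylates the ribosomal protein RPS2, had means of 6.53 and 6.35 with DMSO and 6.55 and 6.18 with TBBD. Its differences, 0.03 at number 1 and -0.17 at number 2, had opposite signs, and the difference of -0.07 ± 0.17 (SE) overall was 0.0027 with the median over probesets, 0.015 without DMSO 1 and 0.11 without TBBD 2. PRMT6, which methylates histone H3, rests on 3 probesets and had means of 6.21 and 6.20 with DMSO and 6.19 and 6.47 with TBBD. Only TBBD 2 stands apart, and the difference of 0.13 ± 0.14 was -0.013 without it.

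PRMT2, a coactivator with an SH3 domain, had means of 6.24 and 6.61 with DMSO and 6.35 and 6.67 with TBBD. It was the only member above 0 at both numbers, with differences of 0.11 and 0.07, where 21.5% of genes lay higher at both, and its overall difference was 0.09 ± 0.19 (SE). The sign turned without DMSO 1, to -0.094, and without TBBD 2, to -0.071. The number 2 arrays lay higher than the number 1 arrays by 0.37 with DMSO and 0.32 with TBBD, more than either treatment difference. Of its 19 probesets 4 were lower at both numbers, where 23.7% of all named probesets were, and 5 were higher, with differences from -0.51 to 1.33. The highest of these came from its dimmest probeset, which read 2.78 on DMSO 1 against 5.24 on DMSO 2, 5.04 on TBBD 1 and 5.64 on TBBD 2. The lowest came from a probeset reading 3.15 on TBBD 1 against 5.12, 5.52 and 6.47 on DMSO 1, DMSO 2 and TBBD 2.

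PRMT8, a membrane-bound relative of PRMT1 known mainly from brain, had means of 5.60 and 5.62 with DMSO and 5.60 and 5.68 with TBBD. Only 4 of its 16 probesets lay above the background mark of 5.81, so it is uncertain whether it was expressed at all. Its 4 arrays spanned 0.08 and its difference was 0.03 ± 0.11 (SE), with an interval from -0.26 to 0.32 and a value of -0.013 without TBBD 2.

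PRMT5, the main source of symmetric dimethylarginine, had means of 9.04 and 8.41 with DMSO and 8.55 and 8.57 with TBBD. The TBBD arrays lie between the DMSO arrays, and 18 of 20 probesets had their highest signal on DMSO 1. The difference was therefore -0.48 at number 1 and 0.16 at number 2. At number 1 18 of the 20 probesets lay lower with TBBD, and at number 2 16 lay higher. The 20 read the same RNA and are not replicates, so these counts restate the gene means. The shares over all probesets were not computed. The mean difference was -0.16 ± 0.23 (SE), with an interval from -0.75 to 0.42, and it was 0.15 without DMSO 1 and -0.48 without DMSO 2. In that last fit PRMT5 was the only member at an unadjusted p under 0.05 in limma, and its adjusted p was 1. Whether the response at the 2 numbers differs cannot be tested with 1 array each. The single probeset with a difference above 0, at 0.94, was dim and read 4.49 on DMSO 1 against 5.76, 5.67 and 6.46 on DMSO 2, TBBD 1 and TBBD 2.

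WDR77, the WD-repeat protein that holds PRMT5 in the methylosome, had means of 7.95 and 7.30 with DMSO and 7.65 and 7.31 with TBBD. DMSO 1 was again the highest array by gene mean, as for 5 of the 10 members and 29.3% of all genes. It was also highest for 12 of 14 probesets, which read the same RNA and are not replicates. The share over all probesets was not computed, here or for PRMT5. The WDR77 difference was -0.29 at number 1 and 0.01 at number 2. Its mean difference of -0.14 ± 0.26 (SE) became 0.18 without DMSO 1, 0.030 without TBBD 2 and -0.47 without DMSO 2. Unlike PRMT5, WDR77 was lower on the number 2 array under TBBD as well, by a difference of -0.34, where PRMT5 stood at 0.01. Centred on their means, the genes PRMT5 and WDR77 lay 0.126 apart over the 4 arrays, the 11th smallest distance of the 45 pairs.

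**Figure D3:**
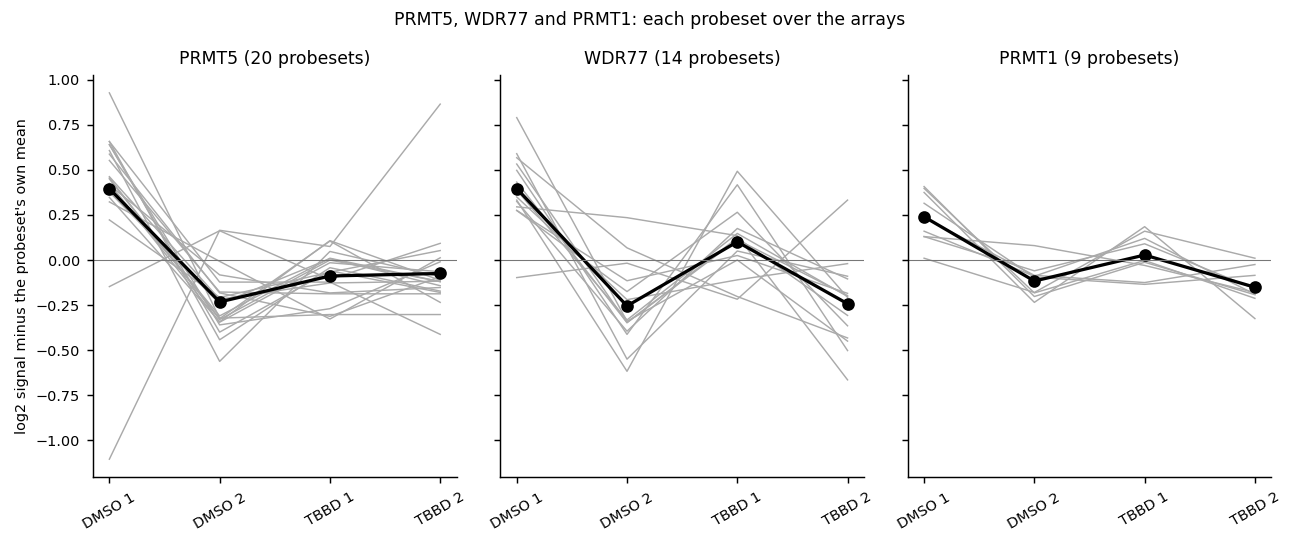
Log2 signal of every probeset of PRMT5, WDR77 and PRMT1 minus the probeset's own mean over the arrays (y axis), on the 4 arrays (x axis). Grey lines are probesets and the black line is their mean. All 3 black lines are highest at DMSO 1, and 18 of 20 PRMT5 probesets peak there.

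PRMT9, which methylates the splicing factor SF3B2, had means of 6.67 and 6.70 with DMSO and 6.56 and 6.43 with TBBD. The groups are separated by 0.103, and the differences were -0.10 at number 1 and -0.27 at number 2. All 12 probesets had a mean difference below 0, from -0.47 to -0.02. Of these 7 lay lower at both numbers, where 23.7% of all named probesets did. The 12 read the same RNA and are not replicates, and the share of all probesets with a mean difference below 0 was not computed. The mean difference was -0.19 ± 0.12 (SE), with an interval from -0.49 to 0.12, and leaving out an array moved it between -0.25 and -0.12.

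PRMT7, the monomethylating enzyme, had means of 6.52 and 6.37 with DMSO and 6.22 and 6.27 with TBBD. The groups are separated by 0.102, and the differences were -0.30 and -0.10. The mean difference of -0.20 ± 0.12 (SE), with an interval from -0.51 to 0.11, was the largest of the family in size. Leaving out an array moved it between -0.28 without DMSO 2 and -0.13 without DMSO 1. It was -0.11 without the probesets dimmer than the olfactory receptor median. Differences over its 19 probesets ran from -1.20 to 0.51 with an SD of 0.46, against an SD of 0.42 for PRMT2. The lowest came from a dim probeset that read 6.04 and 4.58 with DMSO and 3.99 and 4.24 with TBBD. Its brightest probeset read 9.39 and 9.40 with DMSO and 9.30 and 9.38 with TBBD, a difference of -0.05. Of all genes 23.0% lay lower at both numbers, as did CARM1, PRMT1, PRMT7 and PRMT9, 4 of the 10 members. Of the 143 probesets 51, or 35.7%, lay lower at both, against 23.7% of all named probesets, and 19 lay higher at both. CARM1 gave 11 of the 51, PRMT7 9 and PRMT9 7. Probesets of 1 gene read the same RNA and are not replicates.

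**Figure D4:**
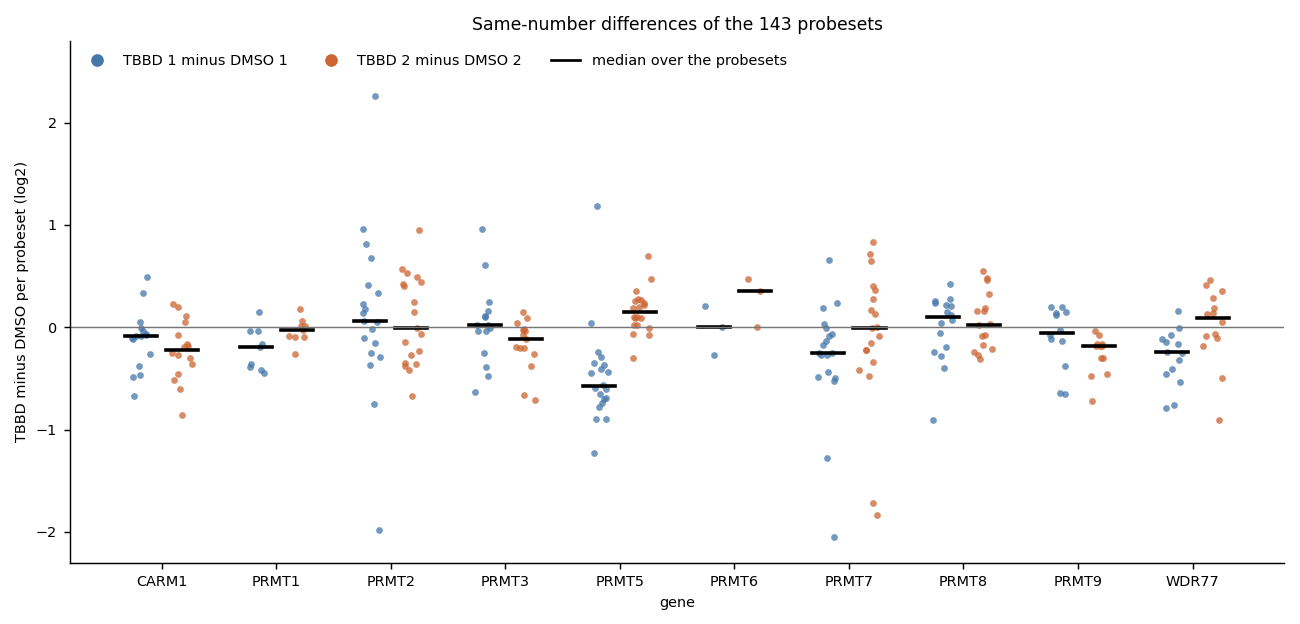
TBBD minus DMSO in log2 units (y axis) of the 143 probesets by gene (x axis), with number 1 in blue, number 2 in orange and the median over probesets as black bars. The PRMT5 probesets lie mostly below 0 at number 1 and above 0 at number 2, while PRMT2 and PRMT7 hold the widest spread.

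Cell type markers also differed between arrays, in more than 1 pattern. The germ layer list had a median difference of -0.52 at number 1 and 0.08 at number 2, with 5 of 8 genes lower and 3 higher. EOMES, a factor of the primitive streak, was its lower end at -0.83 ± 0.38 (SE). It read 7.38 on DMSO 1 and 6.23, 6.03 and 5.92 on DMSO 2, TBBD 1 and TBBD 2, high on DMSO 1 alone, as PRMT5 was. The streak genes MIXL1, at 7.85 against 6.04, 6.37 and 6.01, and TBXT, at 7.87 against 6.74, 6.89 and 6.42 in the same order, were also highest on DMSO 1, with differences of -0.75 ± 0.59 and -0.65 ± 0.40. SOX1, a neural factor, was the upper end at 0.43 ± 0.15, with 0 of 3 probesets above the background mark. It was the 1 gene of this list at an unadjusted p under 0.05 in limma, and its adjusted p was 1. The summed level of the list, added on the linear scale and given as log2, was 10.53 and 10.32 with DMSO and 9.93 and 10.38 with TBBD. All 5 fibroblast markers (COL1A1, COL1A2, THY1, DCN and LUM) were higher on the number 2 array in both groups, by a median of 1.60 with DMSO and 1.59 with TBBD. THY1 rose least, from 7.20 to 7.34 with DMSO and from 6.99 to 7.53 with TBBD. The level of the 5 markers, summed in the same way, was 10.84 and 12.56 on DMSO 1 and 2, and 11.07 and 12.71 on TBBD 1 and 2. Their differences of TBBD minus DMSO ran from DCN at -0.11 ± 1.45 to LUM at 0.27 ± 0.63. The level of 6 stem cell markers, summed in the same way, was 11.10 and 10.67 with DMSO and 10.95 and 10.26 with TBBD, and 5 of 6 were lower at number 2 with DMSO and 4 of 6 with TBBD. All 6 had a difference of TBBD minus DMSO below 0, with a median of -0.26, from SALL4 at -0.54 ± 0.30 to NANOG at -0.17 ± 0.13, and 0 of them passed the test. No marker was at 0 on this scale, but genes taken as silent are not either, with an olfactory receptor median of 5.40. The part of these shifts in the results was not tested, and in such bulk RNA fewer cells of a type and less RNA per cell cannot be told apart.

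Genes that supply, read or receive arginine methylation were examined as lists, and in each of them 0 genes passed the adjusted threshold in limma. Of 12 measured genes for the supply of the methyl donor, 6 lay lower and 6 higher. MAT2A, which makes S-adenosylmethionine, had the most negative difference at -0.35 ± 0.19 (SE), with 10.17 and 9.74 on the DMSO arrays and 9.50 and 9.71 on the TBBD arrays. Most of it came from number 1, at -0.68 against -0.03 at number 2. BHMT, which remethylates homocysteine, had the most positive at 0.28 ± 0.31. BHMT read 5.36 and 6.02 with DMSO and 5.65 and 6.29 with TBBD, below the background mark of 5.81 on both number 1 arrays. Of its 7 probesets 4 lay above that mark. Of 8 partners and regulators of the enzymes, 4 lay lower and 4 higher. EPB41L3, which binds and inhibits PRMT3, read 7.69 and 7.62 with DMSO and 7.31 and 7.38 with TBBD. Its difference of -0.31 ± 0.11 was the 1 in this list at an unadjusted p under 0.05, and it missed the adjusted threshold. BTG1, which binds PRMT1, was the highest there at 0.26 ± 0.34, and RIOK1, which brings substrates to PRMT5, stood at -0.14 ± 0.20 with -0.39 at number 1 and 0.10 at number 2.

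METTL23, also proposed to methylate arginine 17 of histone H3, read 7.34 and 7.48 with DMSO and 7.47 and 7.42 with TBBD, a difference of 0.03 ± 0.12 (SE). Of its 2 list companions, NDUFAF7, a mitochondrial enzyme, stood at -0.18 ± 0.19 and FBXO11 at 0.07 ± 0.15. Of 8 genes for citrullination or breakdown of methylarginine, 3 lay lower and 5 higher, from DDAH1, which degrades free methylarginine, at -0.22 ± 0.26 to PADI3 at 0.20 ± 0.12. PADI3 had gene means of at most 5.73, below the background mark, which comes from single probesets. Since 6 of its 16 probesets lay above that mark, it is uncertain whether PADI3 was expressed. Of 9 measured readers 5 lay lower and 4 higher. PAF1 at -0.10 ± 0.14 and CTR9 at 0.15 ± 0.13, both of the PAF1 complex, were its ends.

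Of 14 measured CARM1 substrates, 8 lay lower and 6 higher with a median of -0.08. SOX2, a stem cell factor, was lowest at -0.46 ± 0.59 (SE), and PAX7, of muscle precursors, highest at 0.17 ± 0.23. PAX7 exceeded the background mark on TBBD 2 alone, at 5.94, and had 4 of 11 probesets above it. The substrates of other family members had 14 of 18 lower and 4 higher, with a median of -0.06. Their median was -0.17 at number 1 and 0.01 at number 2. ALYREF, an RNA export factor, was lowest at -0.26 ± 0.24, and SNRPD3, an Sm protein methylated by PRMT5, highest at 0.18 ± 0.17. ALYREF read 9.67 on DMSO 1, 9.03 on TBBD 1 and 9.12 on TBBD 2, with DMSO 2 just below these, so that it too stood high on DMSO 1 alone.

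**Figure D5:**
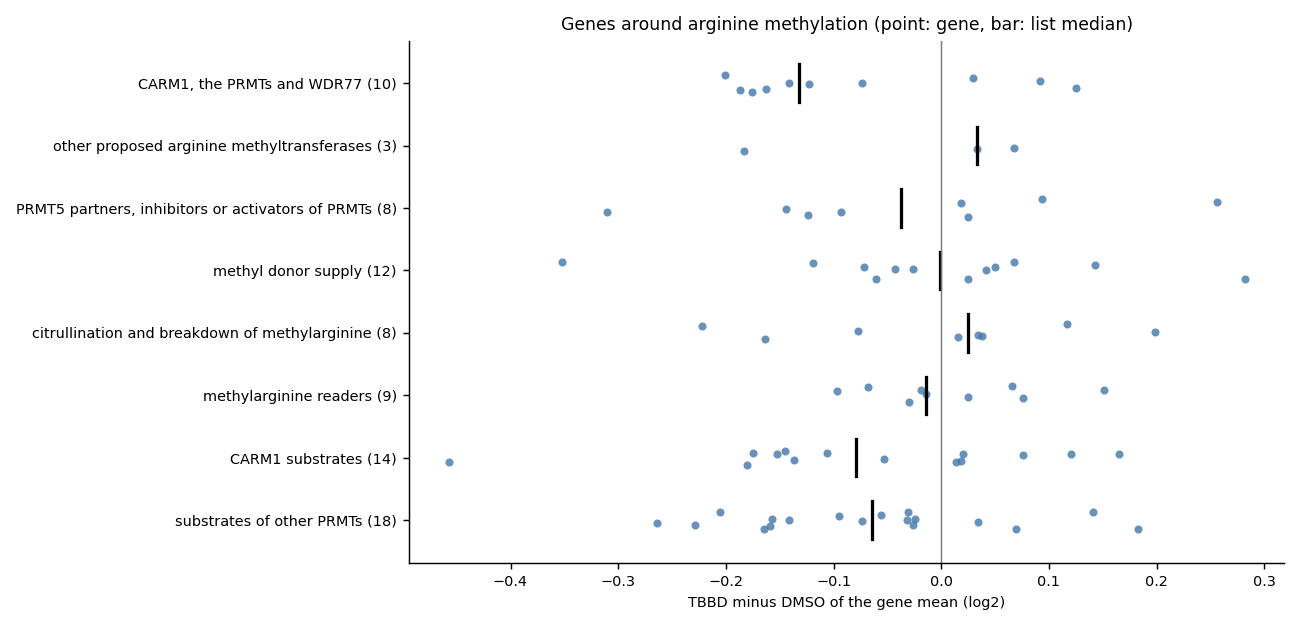
TBBD minus DMSO of the gene mean in log2 units (x axis) for the members and the 7 lists on arginine methylation (y axis, with the number measured), without the marker lists. Points are genes and black bars are list medians, which in these lists run from -0.13 for CARM1, the PRMTs and WDR77 to 0.03.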

How the data were processed

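Each of 4 RNA samples, 2 a group, was read on 1 Affymetrix Human Gene 1.0 ST array. Per the submitters' processing notes the authors used RMA, and the deposited values are log2 signals per exon-level probeset, a scale read from their maximum of 13.7 to 13.8. Which software version was used is unknown here. Of 247312 probesets, 277 with a placeholder cell were left out. Symbols were updated through a RefSeq gene table, and log2 values were averaged per gene. The treatment difference came from limma's two-sided moderated test, fitted to all 4 arrays with no other covariate. P-values of all 18640 genes were adjusted together by Benjamini-Hochberg, and 0.05 was the threshold. The fit was tested on simulated data. The members and lists were chosen with earlier results of these data known. All members are named, with the list genes of largest and smallest difference, METTL23, and the 5 genes nearest to CARM1. RIOK1, LIN28A, DNMT3B, POU5F1, GATA6, PAX6, MIXL1, TBXT, AFP, SOX17 and the 8th CARM1 probeset were chosen after their values were seen. Some genes of the lists are not reported here. The number of arrays limits the precision. R 4.3.3, limma 3.58.1, Python 3.11.15, numpy 2.4.6, pandas 2.3.3 and matplotlib 3.10.9 were used.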

Additional observations from a re-analysis of the deposited data

How the results depend on the processing

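None of 13 alternatives gave a gene past limma's adjusted threshold, and none of the 10 run on single probesets gave a probeset. CARM1, PRMT7 and PRMT9 lay lower under all 13. Leaving out an array could not have turned these genes, as their groups do not overlap. Alternatives that changed only the error model or the genes tested left each difference as it was. Genes with an unadjusted p under 0.05 numbered 139, and this became 47 among the brightest 2 in 3 genes, 90 for genes with at least 3 probesets, 225 with an intensity trend, 249 with the median over probesets and 496 with the replicate block. The 6633 single probesets became 10515 with the replicate block and 4320 without dim probesets, where fewer were tested. PRMT3 turned to 0.0027 with the median over probesets. With 1 array left out, the lone array of its group is assumed to vary like the others. The gene count then ran from 137 to 320 and the members' median from -0.20 to 0.018. PRMT1 ran from -0.30 to 0.054, PRMT2 from -0.094 to 0.28, PRMT3 from -0.26 to 0.11, PRMT5 from -0.48 to 0.15, PRMT6 from -0.013 to 0.26, PRMT8 from -0.013 to 0.071 and WDR77 from -0.47 to 0.18. The cause was not tested. Arrays of 1 number deviated together (r = 0.566 across 18640 genes, which are not independent), but the labels do not say that a number is a shared culture, so the block is given here only; it changed no member's call.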
